A study of Mus musculus with 3 samples.

Results

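Chemokines are small secreted proteins that draw leukocytes along a gradient, and their receptors are the G protein-coupled proteins that read it. Both were followed here in EpH4-PR, a line of mouse mammary epithelial cells stably transfected with the A form of the progesterone receptor (PR-A). The members were taken by gene name: array probes, controls aside, whose name begins with Ccl, Cxcl, Ccr or Cxcr and a digit, together with Cx3cl1, Cx3cr1, Xcl1 and Gm1960, the older name of Cxcl3. This gave 50 genes out of 29273 gene names on the array, 36 chemokines and 14 receptors, measured by 63 of its 41174 probes. All 50 genes were measured on each of 3 Agilent whole mouse genome arrays, one per replicate.

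The cells were grown in DMEM with 10% serum to about 75% confluence, with no hormone named in the labels. Cy5 always labelled the RNA of the cells and Cy3 that of the Stratagene mouse standard, a purchased reference. There was no dye swap, so dye and sample cannot be told apart. The methods state that clones were selected after transfection, and the sources used here do not say whether the replicates are separate cultures, so the p-values measure the spread between these arrays, which may be technical. Arrays of the empty vector line EpH4-EV were not analysed here. Each ratio is therefore a level in EpH4-PR cells relative to the reference RNA, whose composition the labels do not give, and it does not measure an effect of PR.

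Chemokines are named for the spacing of their first cysteines, which divides them into CXC, CC, C and CX3C groups. CXC members with a glutamate-leucine-arginine (ELR) motif before the cysteines attract neutrophils through Cxcr2, while the interferon-induced CXC members attract activated T cells through Cxcr3. Inflammatory CC members attract monocytes, macrophages and eosinophils. Homeostatic members guide lymphocytes and progenitor cells to their niches. Epithelial cells, mammary epithelium among them, are known as a source of chemokines, and most chemokine receptors are known from leukocytes.

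Spot intensity was read in scanner units. The median Cy5 intensity of all probes was 111, 113 and 93.4 on replicates 1, 2 and 3, and the 95th percentile of the 314 negative control spots was 85.9, 87.4 and 62.9 in Cy5 and 162, 168 and 107 in Cy3. Across the member probes the log2 ratios of the arrays had a Pearson r of 0.990, 0.982 and 0.979 for the 3 pairs, over 62 or 63 probes that are not independent replicates. All 7 epithelial marker genes (Krt7, Krt8, Krt18, Cdh1, Epcam, Cldn4 and Cldn7) were called higher in EpH4-PR cells. All 8 of their probes were called, against 2.26% of all probes, and their summed Cy5 intensity was between 94789 and 110971. The 15 leukocyte marker genes gave 10 of 27 probes called lower, against 3.83% of all probes. Their summed intensity was 2716 to 3338 in Cy5 and 6292 to 7235 in Cy3, where the negative control spots also read higher (medians of 91.8 to 121.5, against 57.3 to 74.1 in Cy5). The brightest Cy3 probe of Ptprc, the pan-leukocyte antigen CD45, was not well above background in Cy5 on any array (75.3, 73.7 and 61.8). Another Ptprc probe was well above it on all 3 arrays (99.1, 89.6 and 74.8). Of the 15 leukocyte marker genes, 13 had a probe above the 95th percentile of the negative control spots in Cy5 on all 3 arrays. Counted by probe rather than by gene, 66.8% of all probes passed that limit. All 5 mesenchymal marker genes had a probe called lower, though only 6 of their 12 probes were. None of the 5 endothelial probes was called either way in limma (1 each way at an unadjusted p under 0.05, none by the methods' t-test). In bulk RNA, fewer cells of a type and less RNA per cell cannot be told apart. Of the 2 probes of Pgr, the gene of the transfected receptor, neither was well above background in Cy5 on more than 1 array, and whether they match the transfected sequence was not tested.

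A probe was called when its log2 ratio was at least 1 in size with an adjusted p under 0.05 in limma, after Benjamini-Hochberg adjustment over all probes. By this rule 4 of the 63 member probes (6.35%) were higher in EpH4-PR cells, against 2.26% of all probes. Lower calls were made for 13 member probes (20.6%), against 3.83% of all probes. Calls in either direction were made for 6.1% of all probes. The higher probes belong to 3 genes (Cxcl5, Cxcl16 and Cxcl10), and the lower ones to 10 genes (Pf4, Cxcl12, Ccl4, Ccl3, Ccl7, Ccl24, Cxcr4, Cx3cl1, Ccl2 and Ccl5). The median log2 ratio was -0.09 over the member probes and -0.01 over all probes. Under median centring of each array in place of loess, member calls split into 6 higher and 9 lower (40.0% higher, against 23.5%). Those of all probes split into 7031 higher and 708 lower (90.9% higher, against 37.1%). As shares, 17.1% of all probes were then higher and 1.72% lower. Under this setting higher calls thus made up a smaller share of the 63 member probes than of all probes, and lower calls a larger one.

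**Figure D1:**
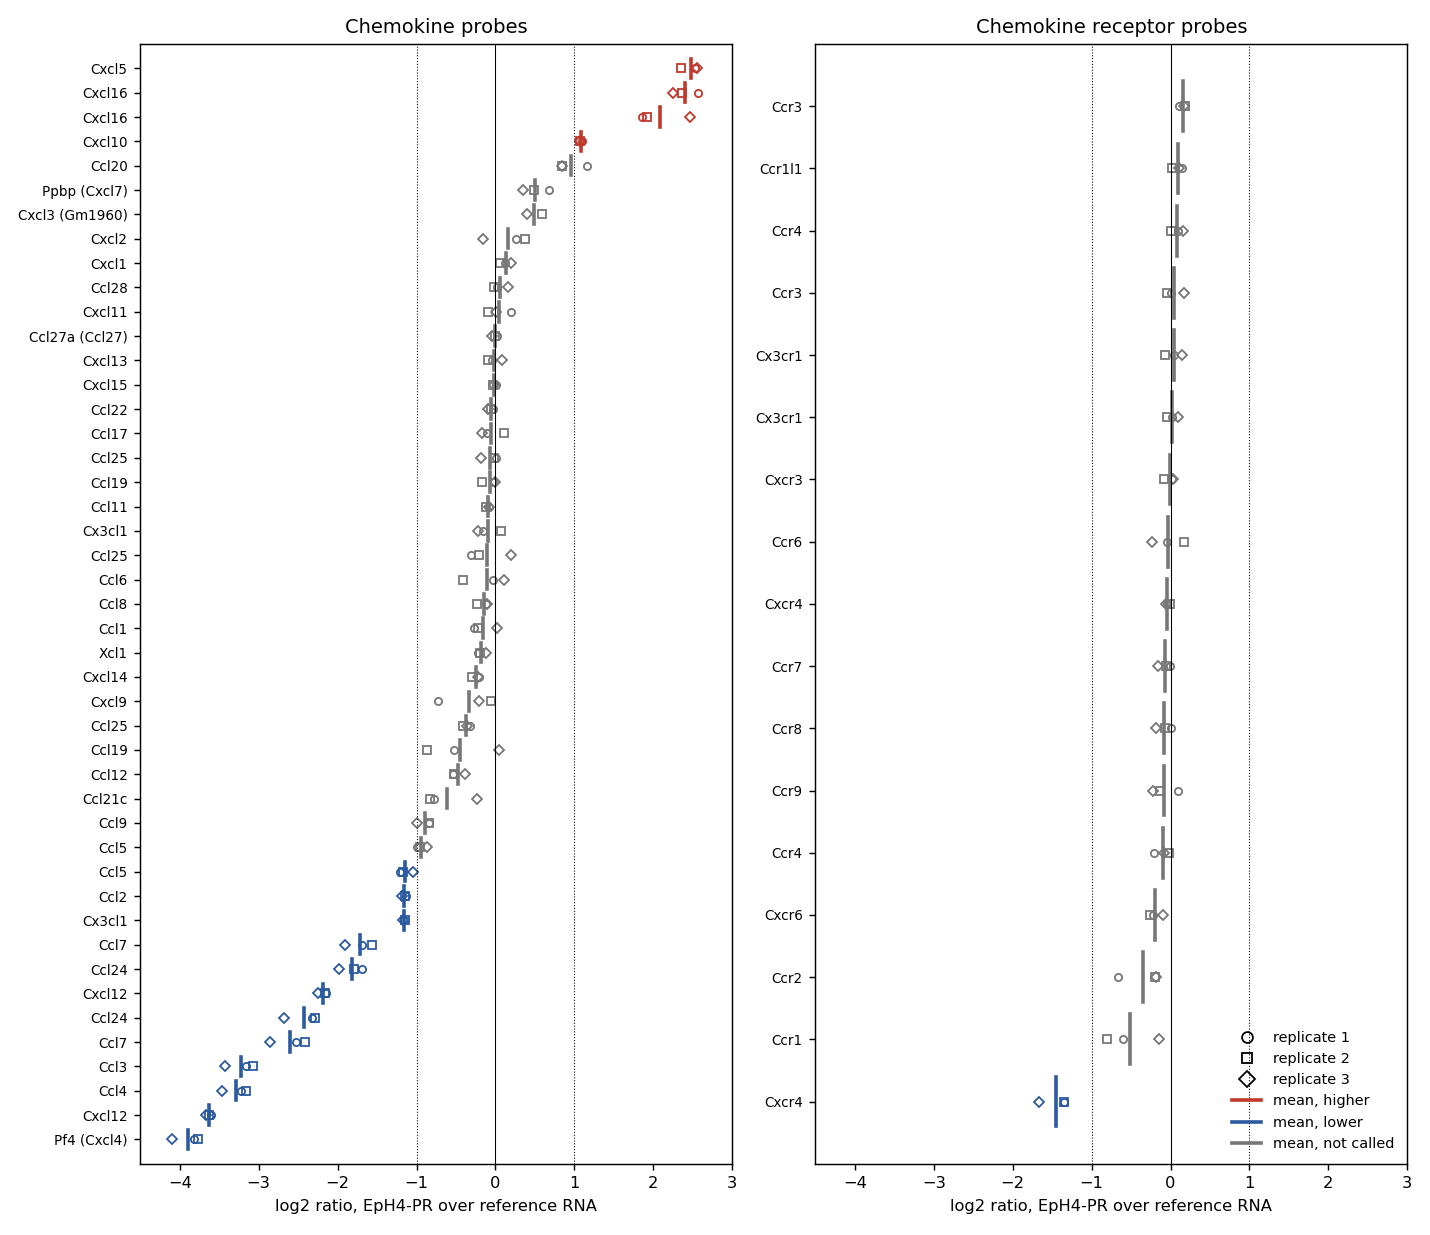
Log2 ratio, EpH4-PR to reference, of 62 member probes, chemokines on the left and receptors on the right. Symbols are the 3 replicates, vertical bars are means, colours give the call, and dotted lines mark a log2 ratio of 1 either way. The 4 higher probes all belong to chemokines, the lowest mean is that of Pf4 at -3.89, and all receptor probes shown but the called one of Cxcr4 lie between -0.52 and 0.15.

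By the flag of the scanner software, 31 of the 50 genes had a probe that stood well above background in Cy5 each time, and 31 had a probe above the 95th percentile of the negative control spots. That limit was passed in Cy5 by 24 of the 36 chemokines and 7 of the 14 receptors. At the level of probes, 61.9% of the members and 66.8% of all probes passed it in EpH4-PR RNA, and 31.7% and 33.2% in reference RNA. At the same limit, 14 of the genes were measurable in both RNAs.

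Of the 5 chemokines listed here as ELR members, Cxcl5 was called higher and the others were not called. The list leaves out Ppbp, which was grouped with Pf4 as a platelet chemokine and is described below. Cxcl5, a neutrophil attractant of epithelial cells, had Cy5 intensities of 3947, 3202 and 3789 on replicates 1, 2 and 3 and Cy3 intensities of 298, 285 and 266. Both channels were above the negative control spots on every array. Its log2 ratio was 2.53, 2.36 and 2.55, a mean of 2.48 ± 0.11 (SD, n = 3, 5.58-fold, limma adjusted p = 1.96e-05).

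Cxcl1, which acts on the same receptor, also had a strong EpH4-PR signal, with Cy5 intensities of 1973, 1585 and 1932 against Cy3 intensities of 697, 619 and 642. After loess its log2 ratio was only 0.13, 0.06 and 0.20, a mean of 0.13 ± 0.07 (SD, n = 3, 95% interval 0.01 to 0.25, limma adjusted p = 0.0772). Cxcl1 RNA was thus measured in both RNAs, and the ratio between them did not pass the test. Bright spots of all kinds leaned to Cy5 before normalization: the brightest 10% of probes had a median log2 ratio of 1.51 before loess and 0.04 after it, and at the brightness of the Cxcl1 probe loess removed 1.44. Under median centring, which removes no such trend, the ratio of Cxcl1 was 1.42 and was called higher.

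Cxcl2 lay near the detection limit, with Cy5 intensities of 104, 111 and 96.4 and log2 ratios of 0.26, 0.37 and -0.15. The arrays disagreed on its sign (mean 0.16 ± 0.28, SD, n = 3, limma adjusted p = 0.273). The Cxcl3 spot, named Gm1960 in the files, read 1489 in Cy5 and 371 in Cy3 on replicate 1, where it was marked as an outlier and left out, and 130 and 122 in Cy5 on replicates 2 and 3. The remaining log2 ratios were 0.59 and 0.39 (mean 0.49 ± 0.14, SD, n = 2, limma adjusted p = 0.00849), below the limit of 1. With the outlier spot kept, the mean was 0.60, and with a normexp offset of 0 it was 1.19 and called higher. Cxcl15, a lung-associated ELR chemokine, was not well above background in Cy5 on any array.

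Cxcl1, Cxcl2 and Cxcl3 are near neighbours on mouse chromosome 5, and their promoters are shown because they carry the same short stretch close to the start site although only some of the genes gave a clear signal. The bases come from RefSeq promoters of GRCm38.p6, 250 bases upstream of the start, written 5′ to 3′ on the strand of the gene. Capitals mark matches to the NF-kappaB consensus, the binding motif of the factor that switches on many inflammatory chemokines, or to the interferon response core, GAAA and GAAA with any bases at the 2 positions between them, searched on both strands. Overlapping matches are merged into 1 run of capitals. Cxcl10 and Ccl20, described below, are added as further members with a ratio above 0.
Cxcl1 (chr5:90890995-90891244, plus strand): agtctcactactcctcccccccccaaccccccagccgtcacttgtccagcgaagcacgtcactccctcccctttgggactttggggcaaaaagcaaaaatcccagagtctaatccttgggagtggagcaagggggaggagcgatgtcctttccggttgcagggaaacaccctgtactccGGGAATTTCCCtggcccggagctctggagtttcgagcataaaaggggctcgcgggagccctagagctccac
Cxcl2 (chr5:90903649-90903898, plus strand): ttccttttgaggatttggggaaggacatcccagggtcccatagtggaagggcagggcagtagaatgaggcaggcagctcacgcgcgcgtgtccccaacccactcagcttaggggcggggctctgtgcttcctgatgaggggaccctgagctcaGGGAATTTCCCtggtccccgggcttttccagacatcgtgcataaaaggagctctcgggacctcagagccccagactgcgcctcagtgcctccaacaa
Cxcl3 (chr5:90785851-90786100, plus strand): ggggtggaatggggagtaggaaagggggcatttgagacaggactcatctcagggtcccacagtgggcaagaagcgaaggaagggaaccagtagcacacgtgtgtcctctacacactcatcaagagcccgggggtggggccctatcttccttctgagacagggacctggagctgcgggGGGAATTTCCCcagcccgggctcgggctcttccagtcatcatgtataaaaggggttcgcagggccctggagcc
Cxcl10 (chr5:92348890-92349139, minus strand): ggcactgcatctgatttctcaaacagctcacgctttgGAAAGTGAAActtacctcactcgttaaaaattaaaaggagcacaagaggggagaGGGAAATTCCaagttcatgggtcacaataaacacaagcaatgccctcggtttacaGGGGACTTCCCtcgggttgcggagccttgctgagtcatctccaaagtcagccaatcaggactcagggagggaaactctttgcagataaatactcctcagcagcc
Ccl20 (chr1:83116516-83116765, plus strand): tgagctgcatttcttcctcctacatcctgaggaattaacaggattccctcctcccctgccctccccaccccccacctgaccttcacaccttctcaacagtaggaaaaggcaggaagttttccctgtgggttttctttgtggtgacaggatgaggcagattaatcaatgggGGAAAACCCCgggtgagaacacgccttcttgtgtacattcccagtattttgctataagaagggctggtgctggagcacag

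The run GGGAATTTCCC starts 71 bases before the start in Cxcl1, 97 in Cxcl2 and 73 in Cxcl3. Cxcl10 holds 2 separate runs of the NF-kappaB consensus, from 159 and 104 bases before the start, and 1 of the interferon response core, from 213. Ccl20 holds 1 run of the NF-kappaB consensus, from 80. Among the 42 promoters of the 38 member genes with an entry, 10 (23.8%) held the NF-kappaB consensus in this window, against 7.25% of all 32851 promoters. The called genes among them gave 1 promoter from the higher side (Cxcl10), with a match, and 5 from the lower side, with 0. Uncalled genes gave the other 36 promoters, 9 of them (25%) with a match. Matching promoters not printed were those of Ccl1, Ccl9, Ccr1, Ccr3 and Ccr6, with mean ratios from -0.89 (Ccl9) to 0.15 (Ccr3). No entry was held for Cxcl5 and Cxcl16, nor for some of the 10 genes called lower. The interferon response core was held by 7.14% of member promoters and 2.98% of all promoters. These are matches of letters, and binding was not measured.

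Cxcl10, an interferon-induced attractant of T cells, was called higher. Its Cy5 intensities were 760, 617 and 655 and its Cy3 intensities 208, 187 and 165, above the negative control spots throughout. The log2 ratio was 1.101, 1.070 and 1.072, a mean of 1.08 ± 0.02 (SD, n = 3, 2.12-fold, limma adjusted p = 5.16e-05). Cxcl9 and Cxcl11, the other members of the group, read 83.1, 77.2 and 61.9, and 78.7, 67.0 and 58.7, in Cy5. Both lay below the 95th percentile of the negative control spots on every array.

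Of the membrane-bound chemokines, which are made as transmembrane proteins and shed, Cxcl16 was called higher by both of its probes. Cxcl16 is the ligand of Cxcr6 and also a scavenger receptor. The Cy5 intensities of the first probe (A_52_P99888) were 1157, 1054 and 1044, and those of the second (A_51_P374203) were 755, 716 and 791. Cy3 read 139, 143 and 125, and 149, 141 and 94.5, which was above the negative control spots on 1 array for the first probe and on none for the second. The log2 ratios were 2.57, 2.37 and 2.26 (mean 2.40 ± 0.16, SD, n = 3, limma adjusted p = 2.96e-05) and 1.86, 1.92 and 2.46 (mean 2.08 ± 0.33, SD, n = 3, limma adjusted p = 0.000193). Since the reference signal lay near the controls, the size of this ratio depends on the background correction, and it reached 3.51 and 3.85 with the log ratio of the scanner software.

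Cx3cl1, or fractalkine, the ligand of Cx3cr1, gave a different picture. Its main probe (A_51_P196925) read 613, 630 and 647 in Cy5 and 595, 604 and 602 in Cy3, which are almost equal. After loess the log2 ratio was -1.16, -1.14 and -1.17, a mean of -1.16 ± 0.02 (SD, n = 3, 2.23-fold lower, limma adjusted p = 4.37e-05), and under median centring it was -0.01 and not called. The second Cx3cl1 probe (A_51_P205129), designed on another sequence record, was well above background in Cy5 on 1 array only and had a mean ratio of -0.10.

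**Figure D2:**
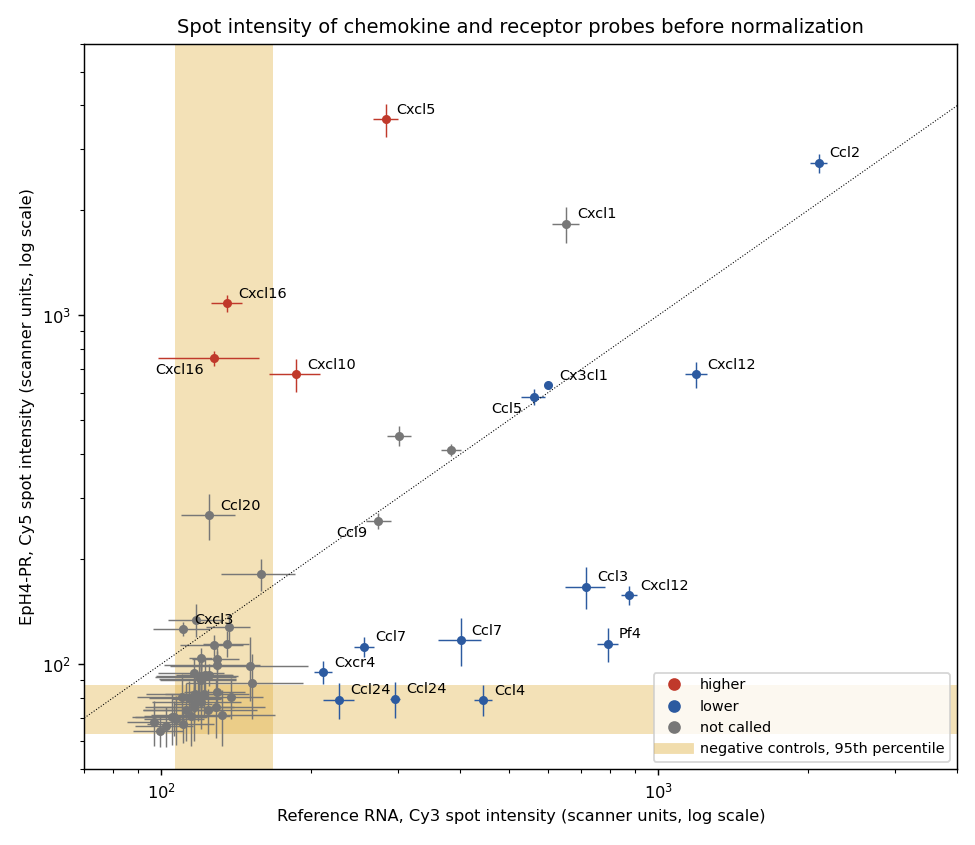
Spot intensity of 62 member probes in EpH4-PR RNA (Cy5, vertical) and reference RNA (Cy3, horizontal) before normalization, both on log scales in scanner units. Points are means over the 3 arrays with SD bars (Cxcl3 without its outlier spot on replicate 1), shaded bands span the 95th percentile of the negative control spots over the arrays, and the dotted line marks equal intensity. Cxcl5, Cxcl16, Cxcl10 and the uncalled Cxcl1 are among the probes clearly above the line. Ccl3, Ccl4, Pf4 and the Cxcl12 probe A_52_P685021 are among those far below it, while the other Cxcl12 probe lies nearer. Ccl2 at 2590 to 2930 in Cy5 lies close to the line although it was called lower after loess.

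The lowest ratios of the CXC chemokines belonged to Pf4 and Cxcl12. Pf4, listed as Cxcl4 and known as platelet factor 4, read 124, 120 and 99.9 in Cy5 and 816, 749 and 812 in Cy3. Its log2 ratio was -3.82, -3.76 and -4.09 (mean -3.89 ± 0.18, SD, n = 3, 14.9-fold lower, limma adjusted p = 1.68e-05). Ppbp, listed as Cxcl7 and likewise a platelet chemokine, had a weak signal of 148, 135 and 119 in Cy5 and a ratio on the other side of 0, at 0.68, 0.49 and 0.35 (mean 0.51 ± 0.17, SD, n = 3, limma adjusted p = 0.00376), below the limit of 1. It was called higher with a normexp offset of 0 (1.15) and with the log ratio of the scanner software (1.39).

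Cxcl12, the ligand of Cxcr4 that retains progenitor cells in bone marrow, had 2 probes annotated to different transcript variants, and both were called lower. The probe A_52_P685021 read 170, 152 and 152 in Cy5 against 909, 849 and 865 in Cy3, with log2 ratios of -3.60, -3.63 and -3.67 (mean -3.63 ± 0.03, SD, n = 3, limma adjusted p = 1.16e-05). The probe A_51_P172502 read 745, 643 and 648 in Cy5 against 1256, 1139 and 1180 in Cy3, with log2 ratios of -2.15, -2.16 and -2.24 (mean -2.19 ± 0.05, SD, n = 3, limma adjusted p = 1.78e-05). The values of the probes did not overlap on any array, so the gene was lower by an amount that differed with the probe. Under median centring the second probe was at -0.94 and not called. Cxcl14, a chemokine of epithelia, had a mean ratio of -0.24 ± 0.05 (SD, n = 3, limma adjusted p = 0.00894) at Cy5 intensities of 89.1, 88.3 and 72.9, and Cxcl13, which guides B cells, was not well above background in either channel.

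Of the 4 CC chemokines that attract monocytes, Ccl2 and Ccl7 were above the negative control spots in EpH4-PR cells on all 3 arrays. Ccl2, the main attractant of monocytes through Ccr2, had Cy5 intensities of 2930, 2590 and 2689 and Cy3 intensities of 2182, 2018 and 2114. The raw signal was thus higher in Cy5 on each array, while the log2 ratio after loess was -1.13, -1.15 and -1.19, a mean of -1.16 ± 0.03 (SD, n = 3, limma adjusted p = 4.59e-05). The direction turned with the centring, to 0.25 under median centring, and loess removed 1.56 at the brightness of this probe. A strong signal in both RNAs is what the arrays show for Ccl2, and its order between them rests on the normalization.

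Ccl7, a close relative of Ccl2, was lower by both probes. Its probe A_51_P436652 read 138, 112 and 102 in Cy5 against 439, 360 and 402 in Cy3, with log2 ratios of -2.53, -2.42 and -2.86 (mean -2.60 ± 0.23, SD, n = 3, limma adjusted p = 4.52e-05), and its probe A_52_P208763 gave -1.69, -1.56 and -1.91 (mean -1.72 ± 0.18, SD, n = 3). Ccl12 and Ccl8 were at the level of the negative control spots in Cy5 on at least 1 array, with mean ratios of -0.48 and -0.15.

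Among the macrophage inflammatory chemokines, Ccl3 and Ccl4 were far lower in EpH4-PR cells. Ccl3 read 192, 162 and 147 in Cy5 and 779, 647 and 721 in Cy3, with log2 ratios of -3.16, -3.08 and -3.43 (mean -3.22 ± 0.18, SD, n = 3, 9.33-fold lower, limma adjusted p = 2.14e-05). Ccl4 read 85.7, 81.0 and 69.9 in Cy5, well above background on 2 of the arrays, and 464, 428 and 442 in Cy3. Its log2 ratio was -3.22, -3.17 and -3.47 (mean -3.29 ± 0.16, SD, n = 3, limma adjusted p = 1.83e-05). Ccl4 was thus close to the detection limit in the cells, above the negative control spots on 1 array, while Ccl3 was above them on all 3. The size of the Ccl4 ratio depended on the background correction and centring, from -2.69 under median centring to -5.61 with the log ratio of the scanner software.

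Ccl5, also known as RANTES, was measured well in both RNAs. The probe A_52_P638459 read 587, 553 and 613 in Cy5 and 594, 556 and 534 in Cy3, and the probe A_51_P485312 read 400, 403 and 429 in Cy5 and 398, 390 and 363 in Cy3. The first was called lower (log2 ratio -1.21, -1.17 and -1.05, mean -1.14 ± 0.09, SD, n = 3, limma adjusted p = 7.73e-05). The second fell just short of the limit of 1 (-0.99, -0.96 and -0.87, mean -0.94 ± 0.06, SD, n = 3, limma adjusted p = 0.000102). Ccl9 was similar, at Cy5 intensities of 267, 265 and 241 and a mean ratio of -0.89 ± 0.09 (SD, n = 3, limma adjusted p = 0.000157), and it was called lower with a normexp offset of 0 (-1.16) and with the log ratio of the scanner software (-1.11). Under median centring Ccl9 was at -0.07 and the Ccl5 probes at -0.01 and 0.07, so that the difference of Ccl9 nearly vanished and the direction of Ccl5 was not settled. Ccl6 lay near the limit, with log2 ratios of -0.03, -0.42 and 0.10.

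**Figure D3:**
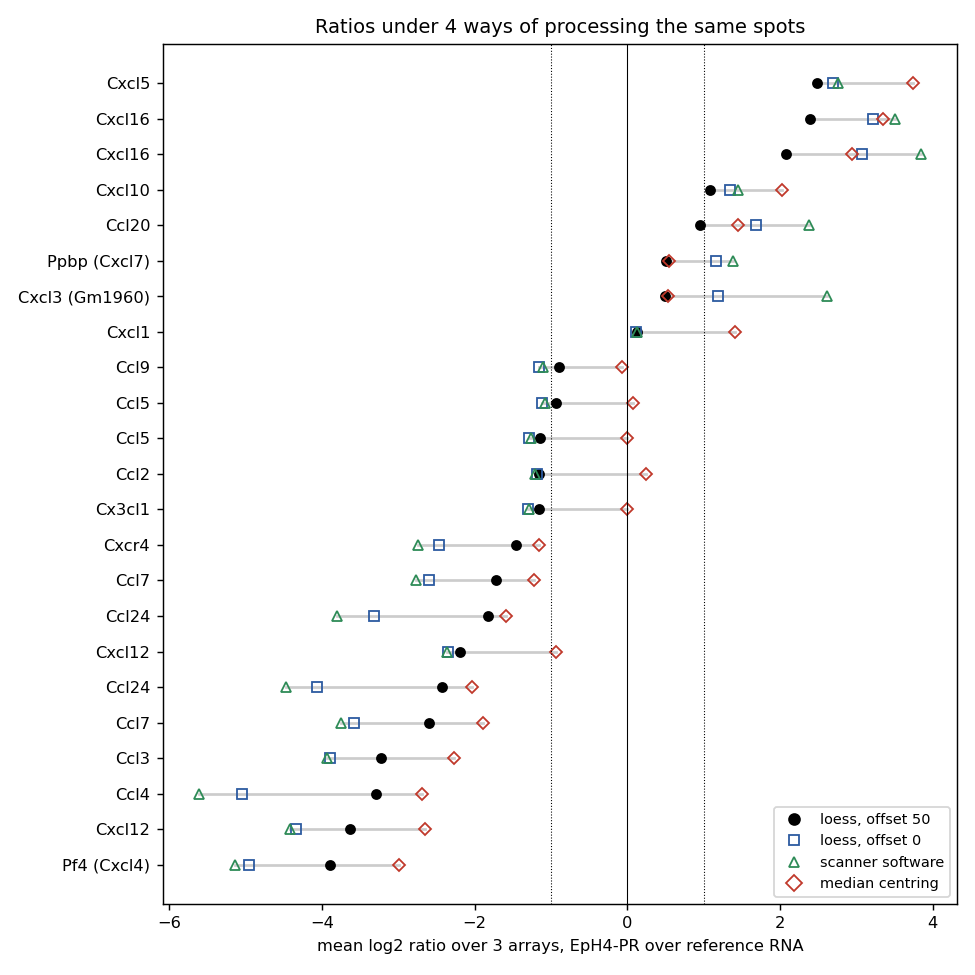
Mean log2 ratio over the 3 arrays of called probes and of selected uncalled ones (Ccl20, Ppbp, Cxcl3, Cxcl1, Ccl9 and the second Ccl5 probe) under 4 ways of processing the same spots. Filled circles are the values of the text, open symbols the alternatives, and dotted lines mark a log2 ratio of 1 either way. Median centring moves the bright probe of Cxcl1 past the limit of 1 (to 1.42), that of Ccl2 across 0 (to 0.25) and those of Cx3cl1 and Ccl5 to about 0, whereas Cxcl5, Cxcl16, Ccl3, Ccl4 and Pf4 keep their side under all 4.

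Of the chemokines that attract eosinophils and T helper cells, Ccl24, or eotaxin-2, was called lower by both probes. Its Cy5 intensities (83.0, 85.9 and 68.5 for A_51_P322640, and 84.3, 85.9 and 68.8 for A_52_P18116) were above the negative control spots on 1 array only, against Cy3 intensities of 235, 240 and 210, and 303, 294 and 291. The mean log2 ratios were -1.82 ± 0.15 and -2.43 ± 0.22 (SD, n = 3 for each, limma adjusted p = 4.7e-05 and 4.85e-05), and their size depended on the processing, with -3.80 and -4.47 by the log ratio of the scanner software and -1.59 and -2.03 under median centring. Ccl11 and Ccl22 were not well above background in either channel, and Xcl1 was not in Cy5. Ccl17, an attractant of T cells through Ccr4, had weak Cy5 signals of 98.9, 95.5 and 85.5 and a mean ratio of -0.06, and Ccl1 had one of -0.16. The lymphoid chemokines Ccl19 and Ccl21c, which bring cells to lymph nodes through Ccr7, had mean ratios of -0.07 and -0.45 for the probes of Ccl19 and -0.61 for Ccl21c, whose probe may share signal with near-identical Ccl21 copies, with arrays on both sides of 0 for the second Ccl19 probe (-0.52, -0.87 and 0.04). Ccl21c was called lower with a normexp offset of 0 (-1.27) and with the log ratio of the scanner software (-1.55).

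The chemokines best known from epithelia were all detected, as each of Ccl20, Ccl25, Ccl27 and Ccl28 had a probe above the negative control spots in Cy5 on all 3 arrays. Ccl20, which attracts Ccr6-bearing dendritic cells and lymphocytes to mucosal surfaces, read 314, 250 and 238 in Cy5 and 133, 135 and 107 in Cy3, the latter above the negative control spots on 1 array only. Its log2 ratio was 1.17, 0.85 and 0.84, a mean of 0.95 ± 0.19 (SD, n = 3, limma adjusted p = 0.00053), just under the limit of 1. It was called higher with the log ratio of the scanner software (2.38), with a normexp offset of 0 (1.68), under median centring (1.45), without replicate 2 (1.00) and without replicate 3 (1.01).

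Ccl25, the ligand of Ccr9 known from thymus and gut, read 479, 422 and 455 in Cy5 and 316, 304 and 284 in Cy3 at its brightest probe. The mean ratio of that probe was -0.37 ± 0.05 (SD, n = 3, limma adjusted p = 0.00194), and it turned to 0.61 under median centring. The other Ccl25 probes had means of -0.07 and -0.11. Ccl27, now Ccl27a, a skin chemokine, had a mean ratio of -0.01 ± 0.03 (95% interval -0.12 to 0.10), and Ccl28, which is known to bring antibody-secreting cells to the lactating mammary gland, one of 0.05 ± 0.09 (95% interval -0.08 to 0.19, SD, n = 3 for each). Their Cy5 intensities, 103, 94.5 and 81.4 for Ccl27 and 97.5, 101 and 76.8 for Ccl28, were close to the control limit, where little difference could be seen.

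The receptors were dim. Of 18 receptor probes 1 was above the negative control spots in Cy3 on all 3 arrays and 8 were in Cy5, the latter from Ccr1l1, Ccr3, Ccr6, Ccr9, Cxcr3, Cxcr4 and Cx3cr1. For these 7 genes the Cy5 intensities of the probes that passed lay between 73.7 (Cxcr3, replicate 3) and 136 (Ccr6, replicate 2). In limma 0 receptor probes were called higher and 1 (5.56%) was called lower, near the 3.83% of all probes. At an unadjusted p under 0.05 there were 1 and 4, against 29% and 28.4% of all probes. The methods' t-test, run on the ratios against 0 with no limit on their size, passed 1 probe either way, against 22.2% and 21.7% of all probes. With Benjamini-Hochberg adjustment it passed 0 and 1, against 13.4% and 13.9%.

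The lower call was that of Cxcr4, the receptor of Cxcl12. Its probe A_52_P585124 read 98.3, 99.5 and 86.4 in Cy5 and 219, 215 and 202 in Cy3, with log2 ratios of -1.35, -1.35 and -1.66 (mean -1.45 ± 0.18, SD, n = 3, 2.74-fold lower, limma adjusted p = 0.000128). The other Cxcr4 probe (A_52_P565353) had a mean ratio of -0.04 ± 0.03 (SD, n = 3) at Cy3 intensities of 125, 126 and 99.3, which did not exceed the negative control spots. Only 1 of the probes thus measured Cxcr4 in the reference.

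Ccr1, Ccr2, Ccr7 and Cxcr6, like the chemokines Xcl1 and Cxcl15, were not well above background in Cy5 on any array but were in Cy3 on some. Their ratios set a signal near background against a weak reference signal, so no fold is given. The log2 ratio of Ccr1 was -0.60, -0.80 and -0.15 (limma adjusted p = 0.0239), with Cy3 above the negative control spots on none of the arrays, and that of Ccr2 was -0.67, -0.19 and -0.18 (limma adjusted p = 0.049), with Cy3 above them on 1. The means of the other 4 genes were between -0.20 and -0.02. Ccr6, the receptor of Ccl20, had weak signals of 133, 136 and 115 in Cy5 and log2 ratios of -0.04, 0.18 and -0.23 (95% interval -0.25 to 0.19). Ccr9, the receptor of Ccl25, had signals of 120, 120 and 103 and ratios of 0.10, -0.13 and -0.23. Neither ratio passed the test.

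Of the 50 genes 12 had several probes. Both probes of Cxcl16, Ccl7, Ccl24 and Cxcl12 received the same call, and those of Ccr3, Ccr4, Cx3cr1, Ccl19 and Ccl25 were all uncalled, with the means of Ccr4 on both sides of 0 (0.09 and -0.10). Ccl5, Cx3cl1 and Cxcr4 each had 1 probe called lower and 1 not called. In Cxcr4 and Cx3cl1 the uncalled probe was the dim one.

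**Figure D4:**
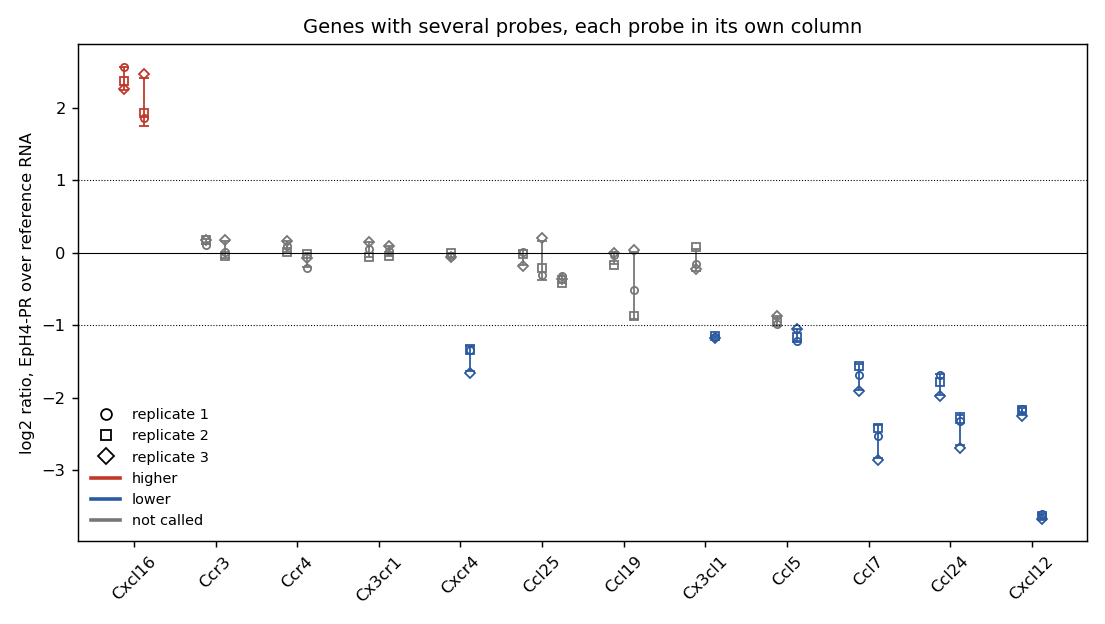
Log2 ratio, EpH4-PR to reference, of the 12 genes with several probes, each probe in a column of its own. Symbols are the replicates, bars span the mean ± SD, colours give the call, and dotted lines mark a log2 ratio of 1 either way. The probes of Cxcl12 (-2.19 and -3.63), Cxcr4 (-0.04 and -1.45) and Cx3cl1 (-0.10 and -1.16) are farther apart than their replicates.

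Chemokine genes lie in clusters, and ratios to the reference differed within a cluster. In the order of the RefSeq assembly, Cxcl5, Ppbp, Pf4, Cxcl3, Cxcl15, Cxcl1 and Cxcl2 are a run of 7 on chromosome 5, which held both the highest member ratio (Cxcl5, 2.48) and the lowest (Pf4, -3.89, where the reference was bright). The run of 6 on chromosome 11 (Ccl2, Ccl7, Ccl11, Ccl12, Ccl8 and Ccl1) had 2 genes called lower. The run of 5 (Ccl5, Ccl9, Ccl6, Ccl3 and Ccl4) on the same chromosome had 3. These are counts of genes by any probe, while 3.83% of all probes were called lower. Under median centring Ccl2 (0.25) and the only called probe of Ccl5 (-0.01) lost their calls.

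Other parts of the chemokine system were counted from lists. Of 16 further chemokine system gene symbols with 22 probes, 1 probe was higher and 2 were lower, against 2.26% and 3.83% of all probes. Among these symbols Ccrl1 and Ackr4 were counted apart, although the probes of both are named Ccrl1 in the files. The higher gene was Cmtm8, a membrane protein of the chemokine-like factor family (log2 ratio 1.67, 1.35 and 1.56, mean 1.52 ± 0.17, SD, n = 3). The lower ones were Ackr3, an atypical receptor that takes up Cxcl12 (-1.81, -1.85 and -1.93, mean -1.86 ± 0.06, SD, n = 3), and Rarres2, the precursor of chemerin (mean -1.17 ± 0.13 for the lower of its probes). Cxcr2, the receptor of the ELR chemokines, is named Il8rb in the files and had means of -0.10 and -0.14, with neither probe well above background in Cy5 on more than 1 array by the flag, and 1 of them (86.2, 92.5 and 64.2) just above the negative control spots on all 3. By its ratio the ligand Cxcl5 reached the limit of 1 (2.48), while the ligand Cxcl1 (0.13) and both Cxcr2 probes did not.

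Through the NF-kappaB pathway, tumour necrosis factor and interleukin-1 switch on many chemokines. All 21 of its listed genes had at least 1 probe above the negative control spots in Cy5 on all 3 arrays. Single probes of Ikbkg and Traf6 did not pass this limit. It was passed by 66.8% of all probes, a share of probes that is not comparable with a count of genes by any probe. Of their 33 probes 1 was called higher and 0 lower in limma, against 2.26% and 3.83% of all probes. At an unadjusted p under 0.05 there were 16 and 8, against 29% and 28.4%. The methods' t-test passed 10 and 8, against 22.2% and 21.7%, and 8 and 6 of these after adjustment, against 13.4% and 13.9%. The median log2 ratio was 0.12. The higher call was Nfkbie, an inhibitor of NF-kappaB (log2 ratio 1.42, 1.39 and 1.37, mean 1.39 ± 0.02, SD, n = 3, limma adjusted p = 3.03e-05). Of the 22 inducing cytokines and receptors, Tlr3, a sensor of double-stranded RNA, was higher by both probes (means 1.38 and 1.14). Il1r1 and Ifngr1, receptors of interleukin-1 and interferon-gamma, were lower (-1.39 ± 0.10 and -1.48 ± 0.07, SD, n = 3), though before loess the signals of Ifngr1 were almost equal, at 1666, 1342 and 1463 in Cy5 and 1574, 1416 and 1530 in Cy3. Il6 and Il1b were not well above background in Cy5 on any array. Among 21 genes of receptor signalling, 6 of 39 probes were lower in limma and 0 higher, with 17 and 13 at an unadjusted p under 0.05, 16 and 11 by the methods' t-test and 13 and 6 after its adjustment. The shares of all probes are those given above beside the NF-kappaB counts. The lower probes belonged to Rac2, Vav1, Elmo1 and Arrb1. Other probes of Elmo1 (means of 0.40 and -0.21) and Arrb1 (-0.30) were not called, nor were those of Dock2, Pik3cg and Rgs1. Of the leukocyte marker probes 10 of 27 were also called lower, and their part in these ratios was not tested.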

How the data were processed

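The authors deposited the Agilent Feature Extraction (8.1.1.1) output of each array, with a mean and a median spot intensity, a local background intensity, 0 or 1 flags (other values) and the log10 of the ratio between Cy5 and Cy3. They also deposited a table of fold changes, p-values and intensities of 2 unnamed sides, which is their own comparison and was not used.

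Mean intensities were corrected with limma 3.58.1 (R 4.3.3) by normexp with an offset of 50, which shrinks the ratios of dim spots, and normalized by loess within arrays. Control spots and outlier spots (150, 18 and 3 on replicates 1, 2 and 3) had no weight in the loess fit and were left out afterwards. Spots of a probe were averaged. The 3 arrays entered lmFit and eBayes, which tested each ratio against 0, and different probes of a gene were not merged. The number of arrays limits the precision. Scripts were tested on simulated data. Alternatives covered background correction, centring, scaling, filters, outliers, spot summary, each array left out, variance prior and the methods' t-test.

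Members and lists were chosen with earlier results of these data known. Named were detected or called members, the 8 highest and 8 lowest ratios, and genes whose probes disagreed. Other members, such as Cxcl13, Ccl11, Ccl22 and Cxcl11, were named with their group after their values were seen. Called genes of the lists were named, with further list genes chosen after their values were seen. RefSeq accessions (GRCm38.p6) gave current symbols for 58 of the 63 probes. The files name no genome build. The values of 1 member gene are not reported here, and it stays in the counts.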

Additional observations from a re-analysis of the deposited data

How the results depend on the processing

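With a normexp offset of 0 the counts of 4 higher and 13 lower member probes became 7 and 18 of 63, against 7.59% and 9.48% of all probes. By the adjusted p alone they were 8 and 23, and the shares of all probes are not given here. With the methods' t-test at its p alone, an alternative added after seeing the data, 7 and 20 of the 63 passed. The shares of all probes were then 22.2% and 21.7%, so higher probes made up a smaller share of the members than of all probes. With the limit on the ratio kept, the t-test gave 4 and 13, against 2.26% and 3.83% of all probes. Leaving out 1 array gave 4 to 5 higher and 13 lower probes. The count of 31 detected genes was 28 to 40 under its alternatives. Under median centring Ccl2 (0.25), the second Ccl5 probe (0.0705), 1 probe each of Ccl25 (0.61) and Ccl19 (0.39), Ccr6 (0.13), Ccl28 (-0.10), 1 probe each of Cx3cr1 (-0.14) and Ccr4 (-0.15) and both Ccr3 probes (-0.0095 and -0.11) changed sign. Called probes of Ccl5 (-0.01), Cx3cl1 (-0.01) and Cxcl12 (-0.94) lost their call there. Ccr6 (0.19) and 1 Ccl25 probe (0.22) changed sign under the log ratio of the scanner software, and Ccl6 (0.0174) with the median spot intensity. The cause was not tested beyond the loess trend. Without single arrays, uncalled probes changed sign: Ccl28 ranged from -8e-04 to 0.0886, Ccr3 from -0.0194 to 0.0922, Cx3cr1 from -0.0144 to 0.0591, Ccl27 from -0.0239 to 0.0084, Cxcr3 from -0.0317 to 0.0235, Ccr6 from -0.1364 to 0.0686 and Ccl6 from -0.2208 to 0.0388. A second filter counted called probes above the negative control spots, was chosen after seeing the data and left 4 and 13. Local background lay below the negative control spots, which limits dim ratios. No paired analysis was possible because there is a single group of samples. Each slide holds 1 array, so no slide block was run.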
